A study of Mus musculus with 2 samples.

Results

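Canonical Wnt signalling runs through beta-catenin, and the 10 genes described here encode its intracellular and nuclear side: Ctnnb1 (beta-catenin), Apc, Axin1, Axin2 and Gsk3b of the destruction complex, the transcription factors Lef1, Tcf7, Tcf7l1 and Tcf7l2, and the feedback gene Sp5. They were chosen by name from the 55414 genes of the tables, and all 10 were found there. RNA sequencing compared 2 libraries of R1E mouse embryonic stem cells, wild type by label and grown in serum medium with leukemia inhibitory factor. The untreated library carries the time label 0 h, and the other came from cells given 0.5 µM Adriamycin (doxorubicin, a topoisomerase II poison that breaks DNA) for 8 h. The listed medium has no GSK3 inhibitor, which some stem cell media add to hold beta-catenin stable. Each condition has 1 library, so no test between conditions was possible. Drug, time in culture and culture cannot be told apart.

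Without a Wnt signal, APC and AXIN proteins hold beta-catenin while GSK3 and casein kinase 1 phosphorylate it, which marks it for degradation. A Wnt ligand halts this, and beta-catenin enters the nucleus and joins TCF/LEF factors on DNA to switch on targets, among them Axin2 and Sp5, which then restrain the pathway. In mouse embryonic stem cells Tcf7l1 acts mainly as a repressor of pluripotency genes, and Wnt signals that relieve this repression favour self-renewal. Transcript levels do not show how much beta-catenin protein is stable or nuclear.

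The 4 TCF/LEF factors read DNA through an HMG box that is nearly the same in all of them. The longest coding transcript of each gene that begins with ATG was used (GENCODE M21, GRCm38), 909 bases for Tcf7. The 75 coding bases of Tcf7, moved codon by codon, with most bases matched in the best windows of the other genes lie in that box. They are coding bases 694 to 768 of Tcf7, 1021 to 1095 of Lef1, 1201 to 1275 of Tcf7l1 and 1111 to 1185 of Tcf7l2. This stretch is shown because it lies in the DNA-binding part that the 4 factors share. Capitals mark the positions at which at least 1 of the 4 differs, and 54 of the 75 bases are the same in all.
Tcf7: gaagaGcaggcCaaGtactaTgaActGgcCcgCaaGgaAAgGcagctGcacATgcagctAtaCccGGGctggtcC
Lef1: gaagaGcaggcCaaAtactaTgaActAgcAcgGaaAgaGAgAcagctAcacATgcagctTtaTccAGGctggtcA
Tcf7l1: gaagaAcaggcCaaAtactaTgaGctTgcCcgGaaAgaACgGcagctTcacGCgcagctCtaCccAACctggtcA
Tcf7l2: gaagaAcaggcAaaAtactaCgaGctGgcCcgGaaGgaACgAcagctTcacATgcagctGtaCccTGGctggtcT
Identical runs between any 2 of these coding sequences were still short, from 14 bases (Tcf7 and Tcf7l1) to 23 bases (Lef1 and Tcf7l1, and Tcf7l1 and Tcf7l2). Axin1 and Axin2 shared at most 21 bases in a row, and Gsk3b shared at most 17 with its paralog Gsk3a. The coding sequences compared thus mostly tell the family members apart. Untranslated exons, which are counted too, were not compared. The Tcf7 sequence was the shortest of the 4, so any coding part of Tcf7 outside it was not compared either.

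The libraries held 41820999 reads (untreated) and 38561292 reads (Adriamycin) assigned to genes. Counts were scaled with TMM factors to CPM (reads per 1e6 of library size), and a gene counted as measured when its CPM averaged 1 or more over both libraries, which left 14871 genes. A log2 ratio is Adriamycin over untreated, and the range after it is a 95% counting interval, which covers counting error only and is too narrow where mates or PCR copies were counted as separate reads. A gene is called higher or lower at 2-fold or more. The p53 targets Mdm2, which degrades p53, and Cdkn1a, the cell cycle inhibitor p21, had log2 ratios of 2.84 and 1.63 in the library labelled Adriamycin. All 10 embryonic stem cell markers examined were measured, and their levels summed to 7262 CPM untreated and 4104 CPM with Adriamycin, and 6 of them were called lower. Their part in the results below was not tested, and in such bulk RNA fewer cells of a type and less RNA per cell cannot be told apart.

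Of the 10 genes, 9 passed the filter, 0 were called higher and 1, Lef1, was called lower. Over all measured genes 17.0% were called higher and 6.95% lower. The median log2 ratio of the 9 was -0.11, against -0.03 over all measured genes, with 6 of the 9 below 0 and 3 above. Sp5 fell under the filter with a mean of 0.876 CPM. With upper-quartile factors Axin2 and Tcf7l1 also passed 2-fold, which made 3 lower, beside 9.39% over all measured genes at that setting. The median of all measured genes itself moved with the scaling, from 0.12 with total counts to -0.15 with upper-quartile factors, and the sign of the median of the 9 turned to 0.03 with total counts.

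**Figure D1:**
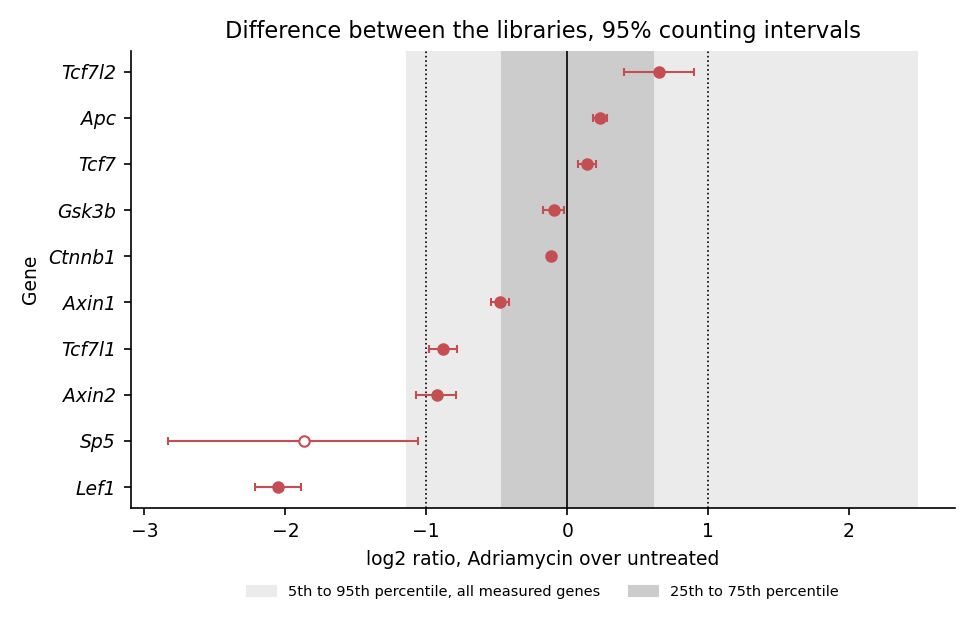
The log2 ratio (Adriamycin over untreated) of each gene, with its 95% counting interval as a bar, over grey bands for the percentiles of all measured genes; dotted lines mark 2-fold and the open point is Sp5, which was under the expression filter. Lef1 at -2.05 and Sp5 at -1.87 lie below the 5th percentile of -1.13, while Ctnnb1 and Gsk3b lie near 0.

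Beta-catenin itself was the most abundant of the 10 and differed little. Ctnnb1 (ENSMUSG00000006932, chromosome 9, 120758282 to 120789573, GRCm39) had 46139 reads untreated and 43541 with Adriamycin, which gives a log2 ratio of -0.11 (-0.13 to -0.09). On a scale set per length, CPM per kilobase of annotated exon, it stood at 223 and 207, more than any other member in both libraries. Its sign depended on scaling, with 0.03 for total counts. Some 759 of its exon bases are shared with Ulk4, a gene of the other strand with 156 and 167 reads, and the counting did not use strand. Against Jup, plakoglobin, a close relative of beta-catenin at cell junctions, the log2 ratio of Ctnnb1 minus that of Jup was -0.12 (-0.16 to -0.08), a value that library scaling cannot change.

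Apc, Gsk3b and Axin1 of the destruction complex were not called in either direction. Apc (ENSMUSG00000005871, chromosome 18, 34353977 to 34455605), the large scaffold and tumour suppressor, had 6081 and 7287 reads, which gives a log2 ratio of 0.23 (0.18 to 0.28). Gsk3b (ENSMUSG00000022812, chromosome 16, 37909363 to 38066446), the kinase that marks beta-catenin, had 3055 and 2914 reads, which gives a log2 ratio of -0.10 (-0.17 to -0.02). With counts divided by 2, to allow for mates counted apart, the Gsk3b interval ran from -0.20 to 0.01 and held 0, and with total counts its ratio was 0.05. It was the only one of the 10 whose interval then held 0. Axin1 (ENSMUSG00000024182, chromosome 17, 26357662 to 26414785), the scaffold usually made at a steady rate, had 4793 and 3506 reads, which gives a log2 ratio of -0.48 (-0.54 to -0.42). Its level per kilobase was 31.5 in the untreated and 22.6 in the Adriamycin library.

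The paralogs of the complex did not all follow. Apc2, a relative of Apc best known from neurons, had 162 and 924 reads and a log2 ratio of 2.48, which is 2.25 above that of Apc on the log2 scale (2.01 to 2.50). Per kilobase Apc2 still stood at only 0.0381 times the level of Apc in the untreated and 0.181 times in the Adriamycin library. Gsk3a had 4332 and 3578 reads, and its ratio lay below that of Gsk3b by a log2 difference of 0.21 (0.11 to 0.30). Gsk3b stood at 0.208 and 0.240 times the Gsk3a level per kilobase.

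The feedback genes Axin2 and Sp5, which report pathway activity in many tissues, both had fewer scaled reads in the Adriamycin library, Axin2 without a call and Sp5 under the filter. Axin2 (ENSMUSG00000000142, chromosome 11, 108811175 to 108841609), an inducible scaffold, had 1155 and 619 reads, which gives a log2 ratio of -0.93 (-1.07 to -0.79) and thus just short of 2-fold. Of the 2537 genes within 1.5 times its mean CPM, 6.35% had a lower ratio. The gap between the scaffolds widened, since Axin1 stood at 5.97 times the level of Axin2 per kilobase in the untreated and 8.15 times in the Adriamycin library, a log2 difference of 0.45 (0.29 to 0.60). Sp5 (ENSMUSG00000075304, chromosome 2, 70305267 to 70308073), a zinc finger factor that acts beside TCF/LEF on Wnt targets, had only 55 and 15 reads, which gives a log2 ratio of -1.87 (-2.83 to -1.06). With counts divided by 2 that interval ran from -3.29 to -0.70. The difference between the Axin2 and Sp5 ratios, 0.97 on the log2 scale, had an interval of 0.14 to 1.81, and -0.21 to 2.16 with counts divided by 2.

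Among the TCF/LEF factors the 4 log2 ratios ranged from -2.05 to 0.65. Lef1 (ENSMUSG00000027985, chromosome 3, 130904120 to 131018005), a factor that is also a Wnt target and mostly activates, had 1581 and 389 reads. It was 4.14-fold lower, with a log2 ratio of -2.05 (-2.21 to -1.89), and only 0.605% of measured genes had a lower ratio. Of the 2629 genes within 1.5 times its mean CPM, 5.17% were called lower and 0.304% had a lower ratio than Lef1. Tcf7l1 (ENSMUSG00000055799, chromosome 6, 72603361 to 72766237), the repressor, had 2392 and 1324 reads, which gives a log2 ratio of -0.88 (-0.98 to -0.78) and short of 2-fold. Tcf7 (ENSMUSG00000000782, chromosome 11, 52143198 to 52174158), which activates in these cells, had 3732 and 4195 reads, which gives a log2 ratio of 0.14 (0.08 to 0.20). Tcf7l2 (ENSMUSG00000024985, chromosome 19, 55730252 to 55922086), the main factor of the gut, had 223 and 357 reads, which gives a log2 ratio of 0.65 (0.41 to 0.90), the highest of the 10. Reads per gene do not separate full-length forms from the short forms of Tcf7 and Lef1 that lack the beta-catenin binding end. Some 1208 exon bases of Lef1 are shared with Gm43352, a gene of the other strand with 17 and 1 reads.

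The make-up of the family differed between the libraries. Of the 7928 reads on the 4 factors in the untreated library, 47.1% were Tcf7 (45.97% to 48.2%, exact Clopper-Pearson, counting error only), 30.2% Tcf7l1, 19.9% Lef1 and 2.81% Tcf7l2. Of the 6265 in the Adriamycin library, 67.0% were Tcf7 (65.8% to 68.1%), 21.1% Tcf7l1, 6.21% Lef1 and 5.70% Tcf7l2. Per kilobase, Tcf7 made up 60.3% and then 76.7% of the family, and the sum over the 4 was 51.6 and 44.7 CPM per kilobase. Tcf7 thus stood at 2.03 times the Tcf7l1 level in the untreated and 4.12 times in the Adriamycin library, a log2 difference of 1.02 (0.91 to 1.14). With counts divided by 2 that interval was 0.86 to 1.19. The Lef1 ratio lay below that of Tcf7 by a log2 difference of 2.19 (2.02 to 2.36), below Tcf7l1 by 1.17 (0.98 to 1.36) and below Tcf7l2 by 2.70 (2.41 to 2.99). These differences between 2 genes, 12 pairs in all, are free of library scaling.

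**Figure D2:**
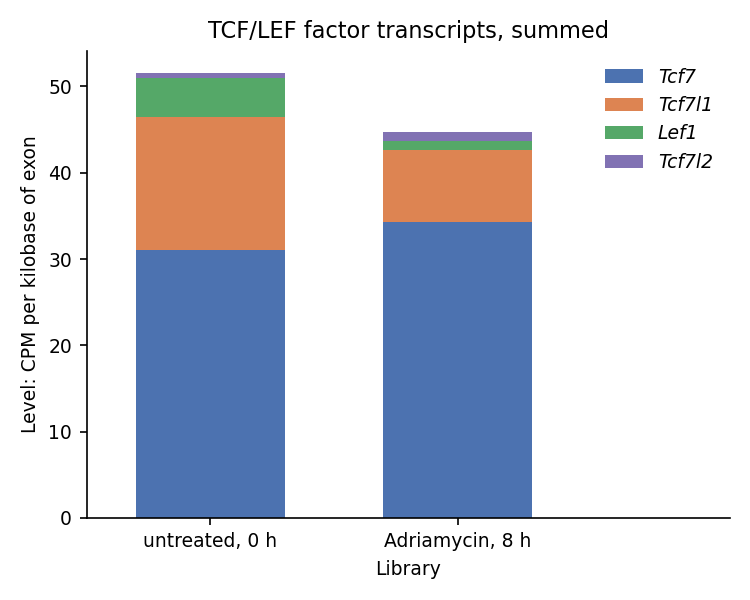
Stacked bars of the levels of the 4 TCF/LEF factors, in CPM per kilobase of exon, in each library. Tcf7 is the largest part in both (31.1 and 34.3), Tcf7l1 goes from 15.3 to 8.32 and Lef1 from 4.52 to 1.09.

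Put in order per kilobase, Ctnnb1 led the untreated library, followed by Axin1 (31.5), Tcf7 (31.1), Tcf7l1 (15.3), Apc (9.49), Gsk3b (7.81), Axin2 (5.27), Lef1 (4.52), Sp5 (0.659) and Tcf7l2 (0.630). The counting intervals of Axin1 and Tcf7 overlapped there, and so did those of Sp5 and Tcf7l2. In the Adriamycin library the order was Ctnnb1, Tcf7 (34.3), Axin1 (22.6), Apc (11.2), Tcf7l1 (8.32), Gsk3b (7.31), Axin2 (2.77), Lef1 (1.09), Tcf7l2 (0.990) and Sp5 (0.176). Lef1 and Tcf7l2 overlapped there, having stood at 4.52 and 0.630 without the drug. Tcf7 passed Axin1, and Apc passed Tcf7l1. The length is that of all annotated exons merged, so these levels depend on which transcripts are annotated.

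**Figure D3:**
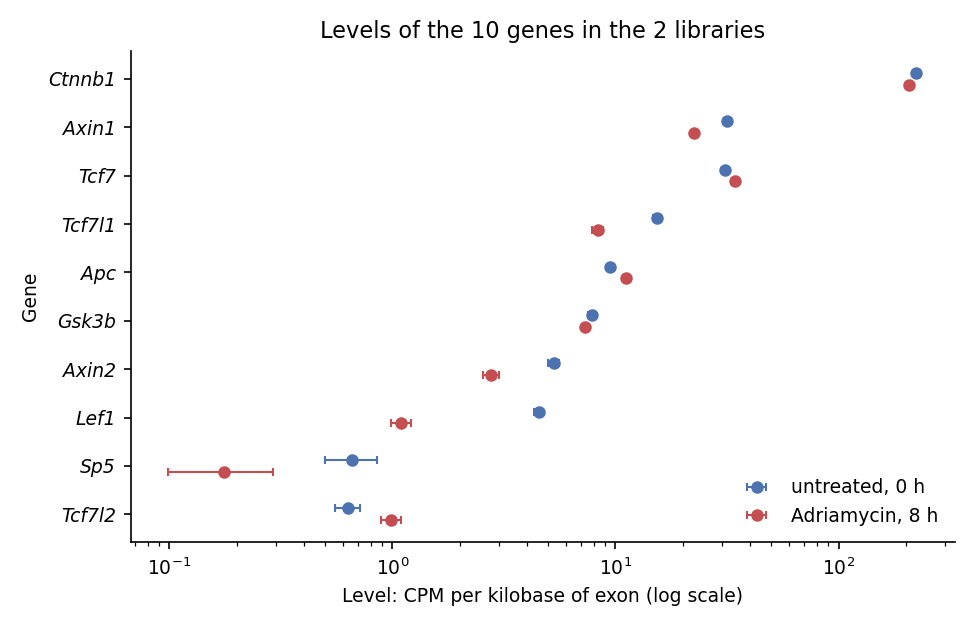
Level of each of the 10 genes in CPM per kilobase of exon (log axis) in the untreated and the Adriamycin library, with 95% counting intervals as bars. Ctnnb1 is the highest in both libraries (223 and 207). For Lef1, Sp5, Axin2, Tcf7l1, Axin1 and, by little, Ctnnb1 the intervals lie apart with the Adriamycin point to the left.

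Promoters of Sp5, Lef1 and Axin2, members that are themselves Wnt targets, are shown because TCF/LEF factors act through short DNA words there. RefSeq promoter windows (GRCm38.p6) were at hand for 8 of the 10 genes, 14 windows in all, of which the 250 bases before each start were searched on both strands for 4 TCF words (the word CTTTGAT, the word CTTTGAA, the word CTTTGTT and the word CTTTGTA) and for the GC box GGGCGG. The windows printed are those of Sp5 (chr2:70474673-70474922, plus strand), of the first listed start of Lef1 (chr3:131110047-131110296, plus strand) and of Axin2 (chr11:108920099-108920348, plus strand). Capitals mark the TCF words in Sp5 and the GC boxes in Lef1 and Axin2.
Sp5: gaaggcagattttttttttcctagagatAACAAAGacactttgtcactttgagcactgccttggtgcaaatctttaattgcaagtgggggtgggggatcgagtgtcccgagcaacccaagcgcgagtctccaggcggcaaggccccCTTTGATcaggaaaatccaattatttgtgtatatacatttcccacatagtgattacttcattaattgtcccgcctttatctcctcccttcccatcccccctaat
Lef1: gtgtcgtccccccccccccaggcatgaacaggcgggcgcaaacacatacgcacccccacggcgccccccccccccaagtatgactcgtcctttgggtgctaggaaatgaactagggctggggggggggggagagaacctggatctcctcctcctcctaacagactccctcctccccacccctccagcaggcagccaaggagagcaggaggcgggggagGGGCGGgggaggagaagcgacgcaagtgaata
Axin2: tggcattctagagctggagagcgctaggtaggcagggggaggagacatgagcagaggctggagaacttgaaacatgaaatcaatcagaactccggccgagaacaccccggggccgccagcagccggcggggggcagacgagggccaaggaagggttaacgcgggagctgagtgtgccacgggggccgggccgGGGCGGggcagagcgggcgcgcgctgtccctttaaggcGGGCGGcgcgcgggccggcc
The Sp5 window held 2 TCF words, CTTTGTT on the minus strand from base -222 and CTTTGAT on the plus strand from base -104, counted back from the start. Of the 32851 RefSeq windows, 14.8% held at least 1 such word and 1.43% held 2 or more. The Axin2 window and the first Lef1 window held none, and 3 of the 14 windows held any. The other two were the fourth Lef1 window, with CTTTGTA on the minus strand from base -147, and a Tcf7l2 window, with CTTTGTT on the plus strand from base -14. A GC box stood in 10 of the 14 windows, against 32.7% of all windows. The GC content of these windows ran from 50.8% (the third Lef1 window) to 76.0%, with 64.4% as the next lowest. The median over all windows was 52.4%, and GC content was not matched in this comparison. These 10 windows belong to 6 genes, windows of 1 gene can overlap and share a box, and neighbouring GC boxes can share a base, as 2 did in Tcf7l2. A match is a description of the letters only.

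Around these genes, the rest of the Wnt pathway was followed in 8 lists with 146 genes other than the 10, of which 122 were measured, 29 were higher (23.8%) and 19 lower (15.6%), beside 17.0% and 6.95% over all measured genes, the shares against which the counts below are also to be read. Of the 19 lower genes, 8 stand on the list of genes repressed by Tcf7l1. That list has 10 measured genes and shares 5 with the stem cell markers. With total counts 12 of the pathway genes were lower, beside 4.85% over all measured genes at that setting. Some genes stand on more than 1 list, so the counts of the lists overlap. A gene near the filter could pass it only through the library in which it was higher. Of 16 measured ligands and helpers, 10 were higher and 1 was lower (median log2 ratio 2.19). With a filter of 5 CPM 5 were higher, and with no filter beyond 1 read the median was 1.68. They included Wnt9a (104 and 1741 reads) and Wnt3a (64 and 800 reads), both higher, and Porcn, which attaches the lipid that Wnt proteins need (4946 and 2283 reads, log2 ratio -1.14). Of 20 receptors and surface regulators, 5 were higher and 2 lower (median -0.32), and 3 were higher at 5 CPM. Lgr6, a receptor for R-spondins that amplify Wnt signals, had 151 and 852 reads. The Wnt receptor genes went both ways. Fzd1 (60 and 198 reads) and Fzd10 (1152 and 2518 reads, log2 ratio 1.10) were among the higher ones. With upper-quartile factors the Fzd10 ratio was 0.98, short of 2-fold. Fzd5 (7602 and 3719 reads) and Fzd7 (4327 and 2199 reads) were the lower ones. Their log2 ratios of -1.06 and -1.004 were just past 2-fold. With total counts 0 of this list were lower.

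Of 8 secreted inhibitors, 3 were higher and 2 lower. Their median was 0.05, but -0.07 with upper-quartile factors and -0.14 with a filter of 5 CPM. With no filter beyond 1 read 7 were higher and the median was 1.55. Dkk1, which blocks the LRP co-receptors, had 41 and 198 reads (log2 ratio 2.23), while Sfrp1, which binds Wnt proteins, was 5.44-fold lower with 2642 and 495 reads. Of 27 cytoplasmic regulators, 5 were higher (18.5%, near the share over all genes) and 1 was lower (median -0.21). Tnks2, a tankyrase that marks AXIN for degradation, had 11429 and 28661 reads (log2 ratio 1.30, 1.27 to 1.33). Tnks, the other tankyrase gene on the list, had 6531 and 6575 reads (log2 ratio -0.02). Nkd1, an inhibitor of Dishevelled, had a log2 ratio of 1.93. The 1 lower gene was Dact1 (488 and 181 reads). Of 24 nuclear partners of beta-catenin and TCF, 2 were higher and 2 lower (median -0.40). The co-activator gene Bcl9l was 2.71-fold and Cby1, an antagonist of beta-catenin, 2.81-fold higher. The co-repressor gene Tle1 was 2.26-fold lower, and Tbl1x was 2.31-fold lower.

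Other Wnt target genes did not all share the direction of Lef1, Axin2 and Sp5. Of the 14 measured, 6 were higher and 4 lower, with a median of 0.10 that was -0.02 with upper-quartile factors. This list overlaps those above, with Wnt3a, Dkk1 and Notum among the genes counted in both, so it is no separate reading of them. The filter decided which count was larger, since at 5 CPM 2 were higher and 3 lower (median -0.75), and with no filter beyond 1 read 7 were higher and 7 lower (median -0.37). The lower ones were Bmp4 (2761 and 386 reads), Ccnd1, the cyclin D1 gene (4560 and 1648), Cdx1 (225 and 66) and Notum, which strips the lipid from Wnt proteins (939 and 440). The higher ones had few reads without the drug, such as T, the Brachyury gene of the primitive streak (16 and 89), Cd44 (47 and 243) and Dkk1. Tcf7, itself on the target list, had the log2 ratio of 0.14 given above.

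Of 9 adhesion partners of beta-catenin, 2 were higher and 0 lower (median -0.39). Cdh3, P-cadherin, was 2.73-fold higher, and Ctnna1, alpha-catenin, which ties cadherin and beta-catenin to actin, had 34597 and 23387 reads (log2 ratio -0.59). Genes that Tcf7l1 is known to repress in embryonic stem cells numbered 10, of which 8 were lower and 0 higher (median -1.16), beside the log2 ratio of -0.88 of Tcf7l1 itself. Nr0b1 was 5.98-fold, Nr5a2 3.92-fold and Tcl1 2.83-fold lower. With total counts 5 of the 10 were lower. The list shares 5 genes with the stem cell markers, so it is no separate reading of them.

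**Figure D4:**
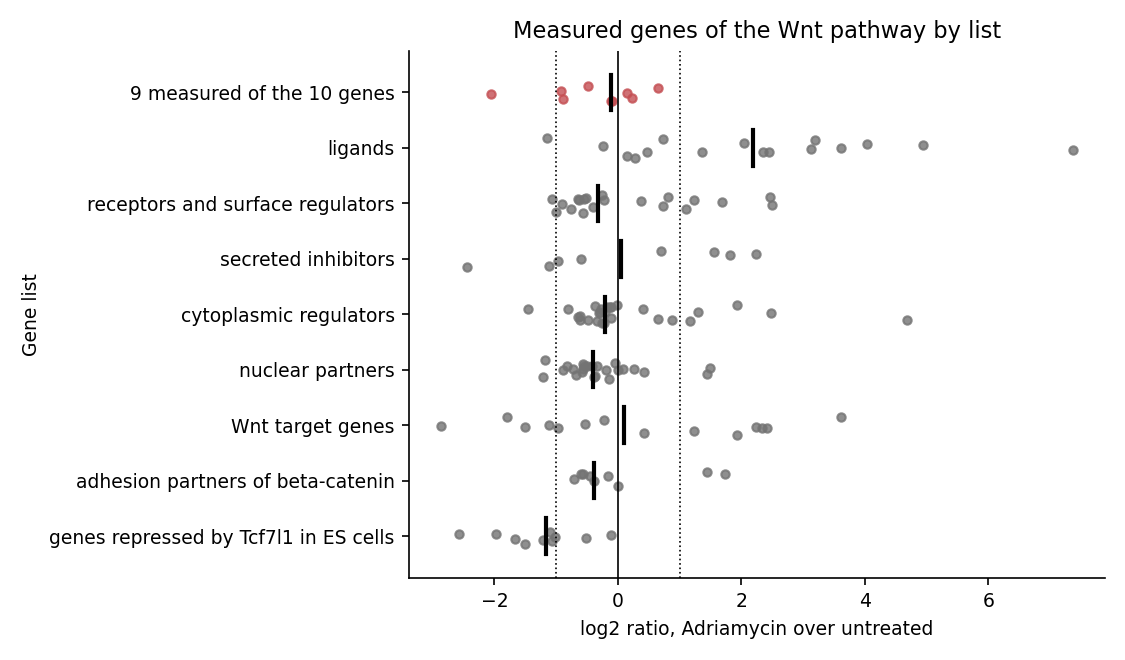
Points are the log2 ratios (Adriamycin over untreated) of the measured genes in each list, with the median as a black bar and 2-fold as dotted lines; the top row holds the 9 measured of the 10 genes described, and the lists below leave those genes out. The ligand median lies at 2.19 among the genes that passed the filter, and the median of the genes repressed by Tcf7l1 lies at -1.16.

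Markers of other cell types were examined beside these values, since Lef1, Sp5 and Tcf7l2 are also used by other tissues. Of 8 fibroblast markers 4 were measured and 1 was higher, and the list summed to 38.8 CPM untreated and 62.3 CPM with Adriamycin. Its members Col3a1, Postn, Dcn and Lum were at 0 reads in both. A count of 0 allows up to 3 reads, or 0.0754 and 0.0740 CPM. Of 8 primitive streak and mesoderm markers 5 were measured, 3 were higher and 1 was lower, with sums of 22.8 and 46.0 CPM. Of 6 endoderm markers 5 were measured and 0 were called, with sums of 61.8 and 55.5 CPM. Their part in the differences of the 10 genes was not tested.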

How the data were processed

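The deposited tables, 1 for each of the 2 libraries, hold counts of reads over genes with no normalization. Per the file headers, the authors counted paired reads with both ends aligned, using featureCounts 2.0.3 over GRCm39, with no strand option. Other versions and builds stand in the submitters' processing notes (HISAT2 2.0.4, featureCounts 1.6.0, mm9 and mm10). Positions of genes follow the headers. A count of 2 was more frequent than 1 (2067 against 1629 genes untreated, 2266 against 1719 Adriamycin), so mates may have been counted apart. Symbols were matched by Ensembl identifier for 52081 of 55414 genes.

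TMM factors (edgeR 4.0.16, R 4.3.3), CPM, and log2 ratios with a pseudocount of 0.5 read were computed from these counts (Python 3.11.15, scipy 1.17.1). Intervals are exact conditional binomial (Clopper-Pearson), and Woolf intervals for differences between 2 genes, all at 95%. Ratios, intervals and calls were tested on simulated data. The simulated counts had counting error only, with no spread between replicates and no mates counted apart, so the simulation cannot speak to either. The 10 genes and all lists were chosen with earlier results of these data known. Named genes are the 10, their paralogs, Mdm2, Cdkn1a, and from each list up to 4 called genes in each direction whose interval lay farthest from 0 and the gene with most reads, not all of which are printed. Jup, Tnks and the overlapping genes Ulk4 and Gm43352 were added after their values were seen. Scaling, pseudocount, filter, fold rule and counts divided by 2 were varied.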

Additional observations from a re-analysis of the deposited data

How the results depend on the processing

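Each of the 10 genes was recomputed with total counts, upper-quartile factors, the median of ratios, a pseudocount of 2 reads and counts divided by 2. Lef1 ranged from -2.17 to -1.90 and was called lower in all of these, Sp5 ranged from -1.99 to -1.73, Axin2 from -1.05 to -0.78, Tcf7l1 from -1.003 to -0.74 and Tcf7l2 from 0.53 to 0.79. Ctnnb1 (-0.23 to 0.03) and Gsk3b (-0.22 to 0.05) changed sign with total counts, by the construction of the scaling. Of the 10 genes, 3 were lower with upper-quartile factors (Lef1, Tcf7l1, Axin2), 2 with no filter (Lef1, Sp5), and with a 1.5-fold rule 3 were lower and 1, Tcf7l2, was higher. The shares lower over all measured genes at these 3 settings were 9.39%, 14.7% and 18.9%. With the 1.5-fold rule 25.7% of all measured genes were higher. Of the other Wnt pathway genes 12 were lower with total counts and 36 with the 1.5-fold rule, and 18 were higher with a filter of 5 CPM. Over all genes, 8514 were higher and 4292 lower of 29123 with no filter. With the 1.5-fold rule 3815 were higher and 2805 lower of 14871. At 5 CPM, where fewer genes were measured, 1417 of 11371 were higher. With no filter the list medians of secreted inhibitors and Wnt targets moved to 1.55 and -0.37, and at 5 CPM to -0.14 and -0.75. No paired analysis was possible because each condition has 1 library. Depth limits Sp5 most, with 15 reads in the Adriamycin library, and no library could be left out.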

Other observations

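Genes near the 10 on their chromosomes were read as well. Within 1 Mb of Lef1, 7 other genes were measured, with a median log2 ratio of -0.36, 1 higher and 1 lower. Within 1 Mb of Tcf7l2 there were 13, with a median of 0.15, 2 higher and 0 lower. The 22 around Sp5 had a median of -0.33, with 2 higher and 5 lower, and the 11 around Axin2 had a median of 0.19, with 3 higher and 0 lower. The 22 around Tcf7l1 had a median of 0.19, with 4 higher and 1 lower.

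Genes at a like level give a second reading of each ratio. Among the genes within 1.5 times the mean CPM of Tcf7l2, 22.7% were called higher, and 68.2% had a ratio below that of Tcf7l2. Among those around Ctnnb1, 76 genes, the median was -0.33, and 71.1% had a ratio below that of Ctnnb1.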
